A study of Rattus norvegicus with 2 samples.

Results

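Interferon response and antigen presentation genes were followed in cortical neurons of rat embryos (E18) treated with control siRNA (siNC) or with siRNA against Ythdf3 (siYthdf3), a reader of the m6A methyl mark on messenger RNA. The set holds 38 named genes, 6 transcription factors, 24 antiviral effectors and regulators and 8 genes of class I antigen presentation. They were taken by symbol from a table of 21224 gene rows, where each had 1 row. Each group had 1 library, so no difference below has a replicate check, no p-value is given, and the values describe these libraries and not the conditions. The labels give both samples the same tissue and name no strain, hypoxic treatment, virus or interferon. Neither do they say how many embryos or cultures entered a library.

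Interferons are secreted proteins that warn cells of viruses. Type I interferon binds the receptor pair IFNAR1 and IFNAR2, and the kinases JAK1 and TYK2 activate the complex ISGF3, which holds STAT2 and IRF9 and binds the interferon-stimulated response element (ISRE) in the promoters of its target genes. The targets include proteins that block virus entry and replication, the regulators of the response itself, and the machinery that cuts proteins into peptides and displays them on MHC class I molecules. In the brain, microglia and astrocytes respond strongly, and neurons keep a lower but measurable set of these transcripts.

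The targeted gene Ythdf3 was at 9.38 FPKM in siNC and 6.93 FPKM in the library labelled siYthdf3, or 0.739 times the siNC level (interval 0.675 to 0.809). Its paralogues Ythdf1 and Ythdf2 were at 0.993 and 0.939 times the siNC level, and both intervals include 1. FPKM are reads scaled by gene length and by library total, and the intervals here are 95% counting intervals of the FPKM ratio, siYthdf3 over siNC. They cover counting error only. The libraries held 15392218 and 22586543 reads assigned to genes, of which the members took 17841 and 22344. This is 0.116% of the reads in siNC (exact interval 0.114% to 0.118%) and 0.0989% in siYthdf3 (exact interval 0.0976% to 0.1002%).

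Most members lay within 1.5-fold between the libraries. With a mean of at least 1 FPKM, 36 of 38 entered, and Irf8 and Nlrc5 did not. Of these 36, 3 were at least 1.5-fold lower in siYthdf3 on the scale of log2(FPKM + 0.5), namely Gbp2, Trim25 and Ifi27, and 0 were at least 1.5-fold higher. Among all 13172 genes that entered, 3.95% were at least 1.5-fold lower and 2.41% at least 1.5-fold higher, so the 8.33% of members that were lower rest on 3 genes. The median log2 ratio was -0.12 over the members and -0.01 over all genes. More members lay below 0 than above, 25 against 11, or 69.4% where 51.9% of all genes lay below 0. Of these, Isg15 and Tapbp, at -0.01 and -0.03, and of the others Dtx3l, at 0.05, changed sign under another scaling or without the length trend. None was 2-fold apart in either direction, where 0.896% of all genes were at least 2-fold lower and 0.706% at least 2-fold higher. Of the members, 10 (27.8%) had a counting interval below 1, against 22.2% of all genes, and 4 (11.1%) had one above 1, against 20% of all genes. The share below 1 was thus somewhat higher than over all genes and the share above 1 lower, both on few genes. Of the 10, 9 were among the 24 antiviral genes, 1 among the 5 measured factors and 0 among the 7 measured class I genes. Of the 4, 3 were antiviral genes and 1 was a class I gene.

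**Figure D1:**
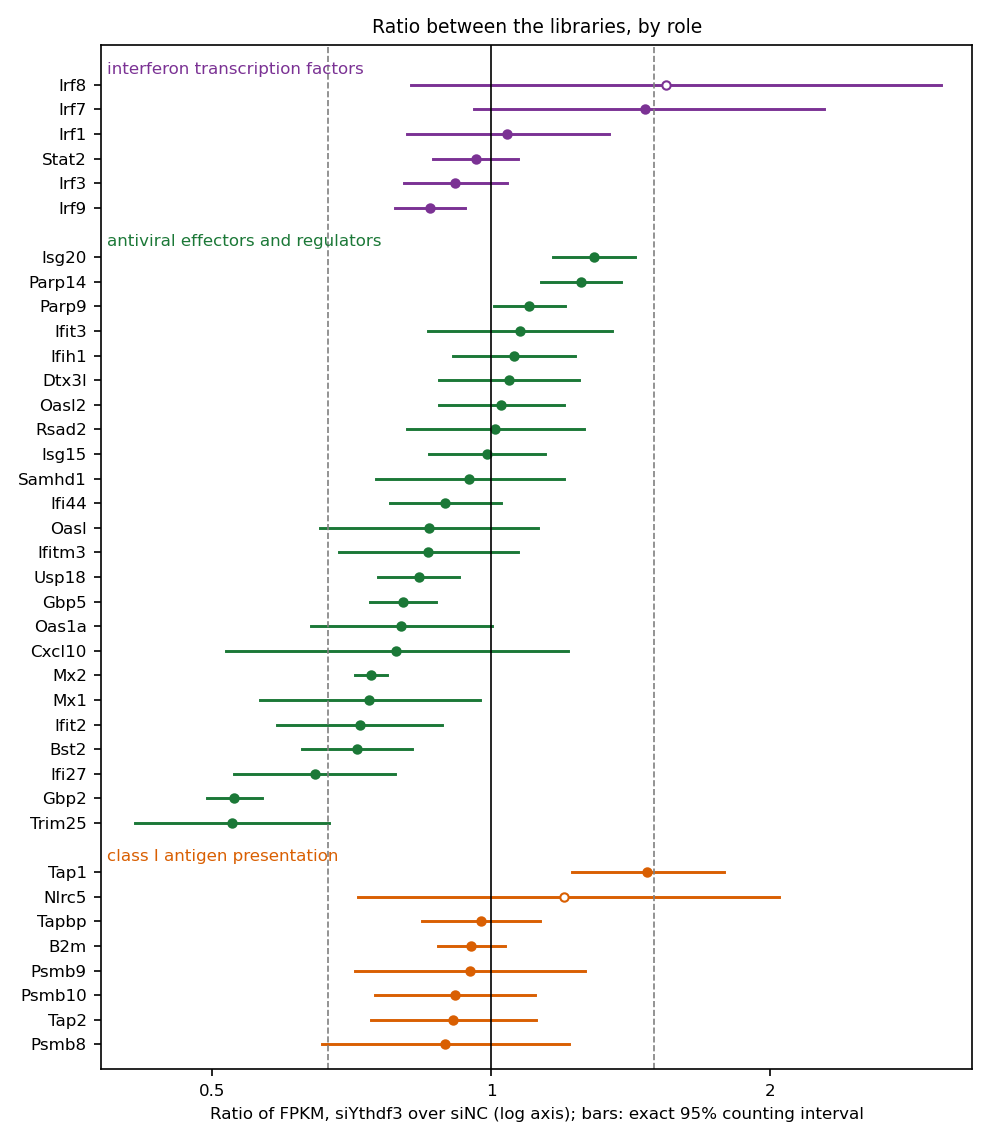
Ratio of FPKM in siYthdf3 over siNC (log axis) for each of the 38 members, grouped by role, with exact 95% counting intervals as bars, the dashed lines at 1.5-fold, and open points for the 2 members under the filter. Gbp2, Trim25 and Ifi27 lie lowest, Tap1 and Isg20 are the highest of those with intervals above 1, and most bars of the class I group cross 1.

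The promoters of the members were searched for short sequence motifs. The members were chosen as interferon response genes, so a high share of such motifs describes the list and is no independent link. RefSeq windows of 300 bases (GRCr8), from 250 before to 50 after the gene start, were found for 33 of 38 members by symbol, and not for Isg15, Ifit2, Mx2, Usp18 and Nlrc5. The ISRE core, GAAA and GAAA with any 2 bases between them, searched on both strands (TTTC and TTTC on the other), stood in 22 of these 33 windows, or 66.7%, and in 3.92% of the 33469 windows of all genes. By role, it stood in 15 of 20 windows of antiviral genes, in 6 of 7 of class I genes and in 1 of 6 of the transcription factors. The STAT site core TTCNNNGAA, where N is any base and which reads the same on both strands, was in 9 of the 33 member windows, or 27.3%, against 8.87% of all windows. The kappa B site, GGGA, any base, TT, any base and CC, searched on both strands as well, was in 5, or 15.2%, against 1.11%. Matches of different motifs that overlap were each counted. A match describes these letters and is no evidence of binding.

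Promoters of 3 members from the low end of the ratios and of 1 from the high end are shown, since the same element stands in all of them. The window of Trim25, which was also at least 1.5-fold lower, holds no match to it. The capitals mark the ISRE core on either strand.
Gbp2, chr2:234005477-234005776, plus strand: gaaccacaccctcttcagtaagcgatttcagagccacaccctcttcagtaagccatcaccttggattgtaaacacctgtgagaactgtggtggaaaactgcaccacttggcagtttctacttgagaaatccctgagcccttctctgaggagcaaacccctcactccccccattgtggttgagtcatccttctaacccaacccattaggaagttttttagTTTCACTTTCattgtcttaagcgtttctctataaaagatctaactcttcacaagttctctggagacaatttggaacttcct
Ifi27, chr6:128355062-128355361, plus strand: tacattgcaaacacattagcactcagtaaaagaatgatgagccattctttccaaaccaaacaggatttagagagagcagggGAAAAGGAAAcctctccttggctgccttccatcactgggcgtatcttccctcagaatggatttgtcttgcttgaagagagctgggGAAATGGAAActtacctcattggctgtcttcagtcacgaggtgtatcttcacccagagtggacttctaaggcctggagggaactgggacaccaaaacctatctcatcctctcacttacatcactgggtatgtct
Bst2, chr16:18254918-18255217, minus strand: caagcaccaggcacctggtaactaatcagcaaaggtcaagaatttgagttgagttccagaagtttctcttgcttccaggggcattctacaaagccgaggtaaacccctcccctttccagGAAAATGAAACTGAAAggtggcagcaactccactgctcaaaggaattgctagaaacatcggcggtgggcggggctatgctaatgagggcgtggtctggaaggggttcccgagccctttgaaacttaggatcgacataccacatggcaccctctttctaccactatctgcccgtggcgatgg
Tap1, chr20:4668494-4668793, minus strand: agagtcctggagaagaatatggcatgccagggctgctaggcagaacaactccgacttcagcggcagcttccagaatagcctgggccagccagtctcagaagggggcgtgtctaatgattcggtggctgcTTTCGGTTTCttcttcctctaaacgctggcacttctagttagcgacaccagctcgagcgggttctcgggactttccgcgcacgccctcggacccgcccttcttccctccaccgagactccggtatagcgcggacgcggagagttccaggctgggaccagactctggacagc
In Gbp2 the match begins 31 bases before the gene start and in Tap1 121 bases before it. Bst2 has a pair of overlapping matches, which begin 131 and 125 bases before the start. Ifi27 has its matches at 169 and 84 bases. The members with the core had a median log2 ratio of -0.09, from -0.91 to 0.50 (22 genes), and those with a window but without it also had -0.09, from -0.80 to 0.13 (10 genes that passed the filter). The ratios thus spread over both signs among promoters that hold the element.

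Irf9, the DNA-binding subunit of ISGF3, was the most abundant of the transcription factors. It was at 31.9 FPKM in siNC and 27.4 FPKM in siYthdf3, or 0.859 times the siNC level (interval 0.788 to 0.937) and a log2 ratio of -0.21. Stat2, its partner, was at 9.27 and 8.92 FPKM, or 0.962 times the siNC level (interval 0.866 to 1.07). Irf9 was thus slightly lower, with an interval below 1, and that of Stat2 included 1. The whole Irf9 row, 5448 bases, lies within that of Rnf31 on the same strand, so strand alone does not separate their reads. Rnf31, named for this overlap, was at 11.5 FPKM in siNC and 10.2 FPKM in siYthdf3. Irf3, which sets off the first wave of interferon transcription after a sensor detects viral nucleic acid, was at 12.5 and 11.4 FPKM. Irf1, induced by interferon gamma, was at 2.77 and 2.88 FPKM. Both intervals include 1. Irf7, which amplifies type I interferon, was higher at 1.57 against 1.07 FPKM, but on 71 and 33 reads its interval, 0.957 to 2.29, includes 1. Irf8, a factor of myeloid cells, had 15 reads in siNC and 34 in siYthdf3 and stayed under 1 FPKM in both. No factor was 1.5-fold apart, and the group's median log2 ratio was -0.05 over 5 genes.

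The guanylate-binding proteins, GTPases that attack the membranes around intracellular pathogens, held the member with the lowest log2(FPKM + 0.5) ratio. Gbp2 (ENSRNOG00000031743, chromosome 2, 231332284 to 231348571, plus strand, in the coordinates of the deposited table) was at 47.0 FPKM in siNC and 24.9 FPKM in siYthdf3. Its ratio of 0.529 (interval 0.493 to 0.567) rests on 1879 and 1458 reads, and its log2 ratio of -0.91 ranked 171 from the lowest of 13172 genes. Gbp5, its neighbour on the chromosome, was at 25.0 and 20.1 FPKM, or 0.804 times the siNC level (interval 0.741 to 0.873). Both were thus lower in siYthdf3, Gbp2 by more. Of the family members outside the set, Gbp1, Gbp4 and Gbp7 had log2 ratios of -0.15, -0.18 and -0.21 and Gbp6 of 0.15, and the intervals of all 4 include 1. These 4 were chosen after their values were seen. Reads can be split between such close copies, so the division among them is uncertain.

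The Mx proteins are dynamin-like GTPases that trap virus particles and polymerases. Mx2 was the most abundant member by far, at 133 FPKM in siNC and 98.7 FPKM in siYthdf3, rank 480 of 21224 rows by mean level. It alone held 26.1% of the members' reads in siNC and 22.7% in siYthdf3. Its ratio was 0.743 (interval 0.714 to 0.773), from 4657 and 5075 reads. Mx1, which lies within the same stretch of chromosome 11, was far lower in level at 2.01 and 1.48 FPKM, or 0.739 times the siNC level (interval 0.563 to 0.972). The ratios of the pair were thus nearly equal at very different levels, although reads of these related genes may be shared. The summed level of all 38 members was 528 FPKM in siNC and 439 FPKM in siYthdf3, a ratio of 0.832. It was 0.862 without Mx2 and 0.907 without Mx2 and Gbp2.

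**Figure D2:**
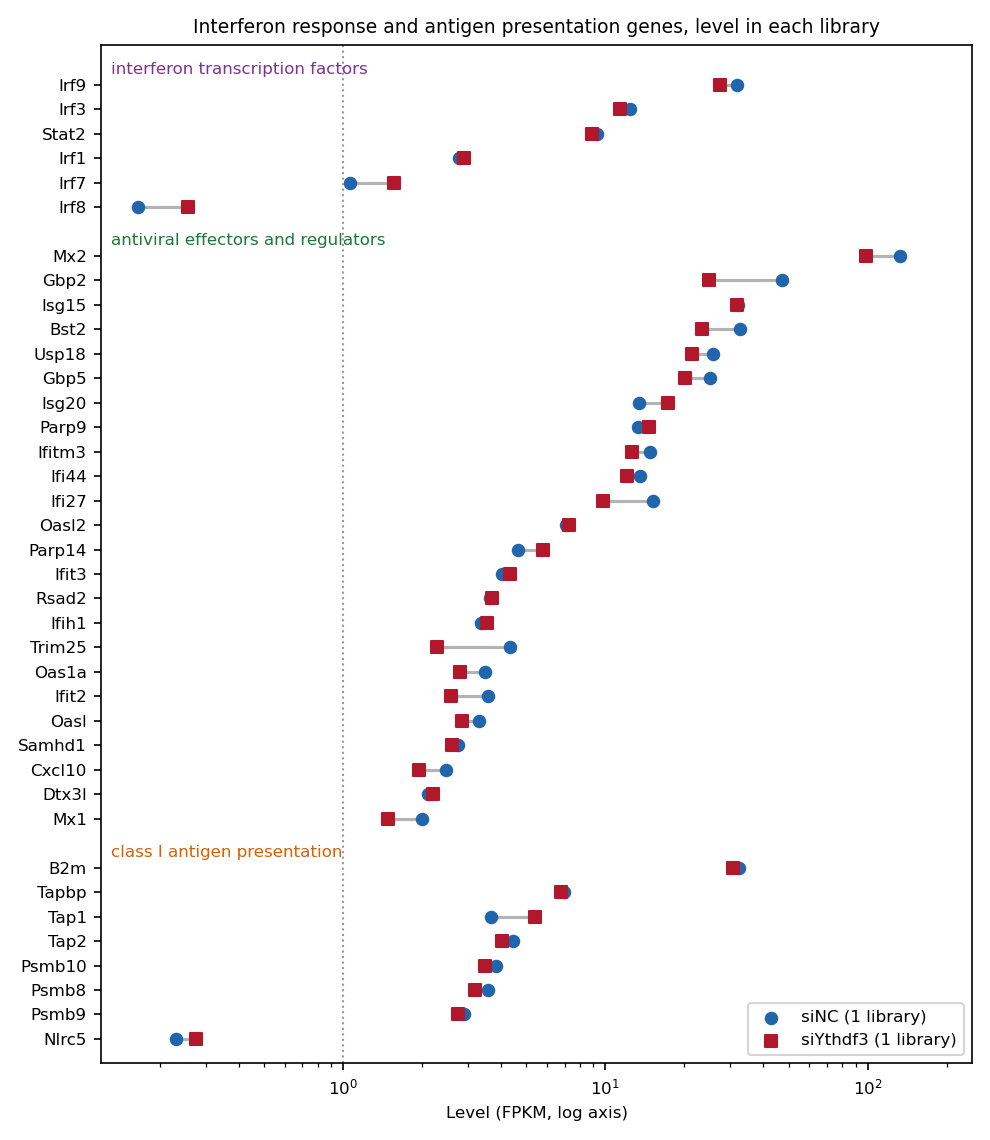
Level of each of the 38 members in FPKM (log axis) in the siNC library (circles) and the siYthdf3 library (squares), grouped by role and ordered by mean, with the dotted line at 1 FPKM. Mx2 stands highest at 133 and 98.7 FPKM, the widest gaps among antiviral genes are those of Gbp2, Trim25 and Ifi27, and Irf8 and Nlrc5 lie left of the line.

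Of 3 genes of small membrane proteins, Bst2 and Ifi27 were lower in siYthdf3 with intervals below 1. Bst2, or tetherin, which holds budding virions on the cell surface, was at 32.6 and 23.4 FPKM in siNC and siYthdf3, or 0.717 times the siNC level (interval 0.626 to 0.822). Ifitm3, which blocks fusion of viruses in endosomes, was at 14.8 and 12.6 FPKM, and its interval of 0.686 to 1.07 includes 1. Ifi27, a small hydrophobic interferon-induced protein, was at 15.2 and 9.81 FPKM, or 0.645 times the siNC level (interval 0.528 to 0.788). Its log2 ratio of -0.61 was just past 1.5-fold and fell short of it under 3 alternatives. It was -0.50 once a trend on gene length was removed, -0.57 after rescaling to TPM and -0.58 with a pseudocount of 1 FPKM. Its row runs from 122590472 to 122779294 on chromosome 6 for a gene length of 889 bases. It overlaps that of the related Ifi27l2a on the other strand, which was at 3.87 FPKM in siNC and 0.977 FPKM in siYthdf3 and was chosen after its value was seen. The row also overlaps 90041 bases of Ppp4r4 on the same strand, at 0.374 and 0.440 FPKM, and 8437 bases of Serpina10 on the other. Both are named for these overlaps. The labels do not say whether counting used strand, and strand alone would not separate Ifi27 from Ppp4r4. The reads of these rows thus cannot be assigned with certainty.

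In the ISG15 system a ubiquitin-like tag is joined to newly made proteins. Isg15 itself was at 32.0 FPKM in siNC and 31.7 FPKM in siYthdf3, or 0.990 times the siNC level (interval 0.858 to 1.14). Usp18, which removes the tag and damps receptor signalling, was at 25.7 and 21.5 FPKM, or 0.835 times the siNC level (interval 0.755 to 0.924). The tag gene thus differed by less than counting error, and its protease was slightly lower. The whole Isg15 row, 1288 bases, lies within that of Agrn on the same strand, so strand alone does not separate their reads. Agrn, named for this overlap, was at 21.2 FPKM in siNC and 20.7 FPKM in siYthdf3.

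Trim25, a ubiquitin ligase that activates the RNA sensor RIG-I, was at 4.33 FPKM in siNC and 2.27 FPKM in siYthdf3. On 162 and 125 reads, the ratio was 0.526 (interval 0.413 to 0.668) and the log2 ratio -0.80, rank 254 from the lowest. It was the second lowest member after Gbp2 on this scale. Without a pseudocount the order turned, with -0.93 for Trim25 and -0.92 for Gbp2. The RNA sensor Ifih1, or MDA5, was in contrast at 3.36 and 3.56 FPKM, or 1.06 times the siNC level (interval 0.910 to 1.23).

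The oligoadenylate synthetases, which make the messenger that switches on RNase L, and their relatives were close between libraries. Oas1a was at 3.49 and 2.79 FPKM, with an interval of 0.640 to 1.00. Oasl was at 3.31 and 2.84 FPKM and Oasl2 at 7.10 and 7.27 FPKM, and both intervals include 1. The IFIT proteins bind foreign RNA at its 5' end. Ifit2 was lower at 2.58 against 3.58 FPKM, or 0.721 times the siNC level (interval 0.588 to 0.885), while Ifit3, its neighbour on chromosome 1, was at 4.34 against 4.05 FPKM, or 1.07 times the siNC level (interval 0.855 to 1.35). Ifit2 was thus lower, and the interval of Ifit3 includes 1.

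Other enzymes of nucleic acids gave both directions. Isg20, an exonuclease of single-stranded RNA, was higher in siYthdf3 at 17.3 against 13.4 FPKM, or 1.29 times the siNC level (interval 1.17 to 1.43). Its row overlaps 9382 bases of Aen on the same strand, a nuclease gene at 26.5 against 21.6 FPKM that was named for this overlap. Samhd1, which depletes deoxynucleotides, was at 2.60 FPKM in siYthdf3 against 2.75 in siNC, and Rsad2, or viperin, which makes a chain-terminating nucleotide, at 3.68 and 3.65 FPKM. Both differed by less than counting error. Ifi44 was at 12.1 FPKM in siYthdf3 against 13.6 FPKM, and the chemokine Cxcl10, which attracts T cells, at 1.96 against 2.48 FPKM on 51 and 44 reads. Their intervals include 1.

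The ADP-ribosylation genes Parp9, Dtx3l and Parp14 lie side by side on chromosome 11 (64780981 to 64934916), and all 3 log2 ratios were above 0. PARP9 and DTX3L form a complex that ubiquitinates histones and viral proteins, and PARP14 modifies signalling proteins. Parp14 was at 5.79 FPKM in siYthdf3 against 4.64 in siNC, or 1.25 times the siNC level (interval 1.13 to 1.38). Parp9 was at 14.6 against 13.3 FPKM (interval 1.01 to 1.20) and Dtx3l at 2.20 against 2.10 FPKM (interval 0.879 to 1.25). The sign of Dtx3l turned once the length trend was removed, to -0.02. Parp9 and Dtx3l share 530 bases on opposite strands. Over all 24 antiviral genes, 3 were at least 1.5-fold lower, 0 were at least 1.5-fold higher, and the median log2 ratio was -0.20, or -0.12 after the length trend was removed.

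Of the 7 measured genes of class I antigen presentation, 6 had intervals that include 1, and the exception was Tap1. Among all 13172 genes that entered, 7623 had such intervals. B2m, the invariant light chain of every class I molecule, was at 32.2 FPKM in siNC and 30.7 FPKM in siYthdf3, or 0.952 times the siNC level (interval 0.876 to 1.03). Tapbp, or tapasin, which loads peptides, was at 6.96 and 6.79 FPKM, and Tap2, a subunit of the peptide transporter, at 4.45 and 4.05 FPKM. All 3 intervals include 1. Tap1, the other subunit, went apart from its partner, at 5.40 FPKM in siYthdf3 against 3.66 FPKM in siNC. Its ratio of 1.47 (interval 1.22 to 1.78) rests on 359 and 166 reads, and its log2 ratio of 0.50, rank 453 from the highest, was just short of 1.5-fold and was 0.59 after rescaling to TPM, past it. The interval of Tap2, 0.741 to 1.12, lies below that of Tap1. Nlrc5, the transactivator of class I genes, had 25 and 44 reads and stayed under 1 FPKM. The median of the 7 that entered was -0.07.

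The immunoproteasome replaces the catalytic subunits of the standard proteasome to produce peptides that fit class I molecules. Its subunit genes were at 3.58 and 3.19 FPKM for Psmb8, 2.89 and 2.74 FPKM for Psmb9 and 3.82 and 3.49 FPKM for Psmb10 in siNC and siYthdf3. All 3 ratios lay between 0.891 and 0.948 with intervals that include 1. The constitutive counterparts were at much higher levels per length, 59.4 and 45.1 FPKM for Psmb5, 34.8 and 26.8 FPKM for Psmb6 and 107 and 97.1 FPKM for Psmb7. Their ratios were 0.760 (interval 0.691 to 0.835), 0.769 (interval 0.675 to 0.877) and 0.905 (interval 0.853 to 0.960). The inducible subunits therefore made up 4.86% of the summed FPKM of the 6 genes in siNC and 5.28% in siYthdf3.

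Psmb8, Psmb9, Tap1 and Tap2 lie within 1 cluster on chromosome 20 (4636357 to 4672512). Their log2 ratios were -0.14, -0.07, 0.50 and -0.12, so genes of 1 cluster did not share a direction. Tap1 and Psmb9 share 856 bases on opposite strands. The whole Tapbp row, 9245 bases, lies within that of Ralgdsl2 on the same strand, so strand alone does not separate their reads. Ralgdsl2, named for this overlap, was at 5.49 and 4.78 FPKM. Rows of 11 of the 38 members overlap another gene row, and without them the median log2 ratio was -0.14 over 25 genes, with 2 at least 1.5-fold lower.

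Level and ratio were compared across the members after their values were seen. All 8 members with a mean of at least 20 FPKM, namely Mx2, Gbp2, Isg15, B2m, Irf9, Bst2, Usp18 and Gbp5, had a log2 ratio below 0, where 55.8% of the 3277 genes at that level did, although Isg15, at -0.01, was above 0 after rescaling to TPM or removal of the length trend. Their median was -0.28, and 6 of the 8 had intervals below 1, against 37.3% of the genes at that level. Between 5 and 20 FPKM, 6 of 10 members were below 0 and the median was -0.04, and between 1 and 5 FPKM 11 of 18 with a median of -0.09. At these levels 52.4% and 48.9% of all genes were below 0. The members above 0, from Rsad2 at 0.01 to Tap1 at 0.50, were thus found at low and middle levels.

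**Figure D3:**
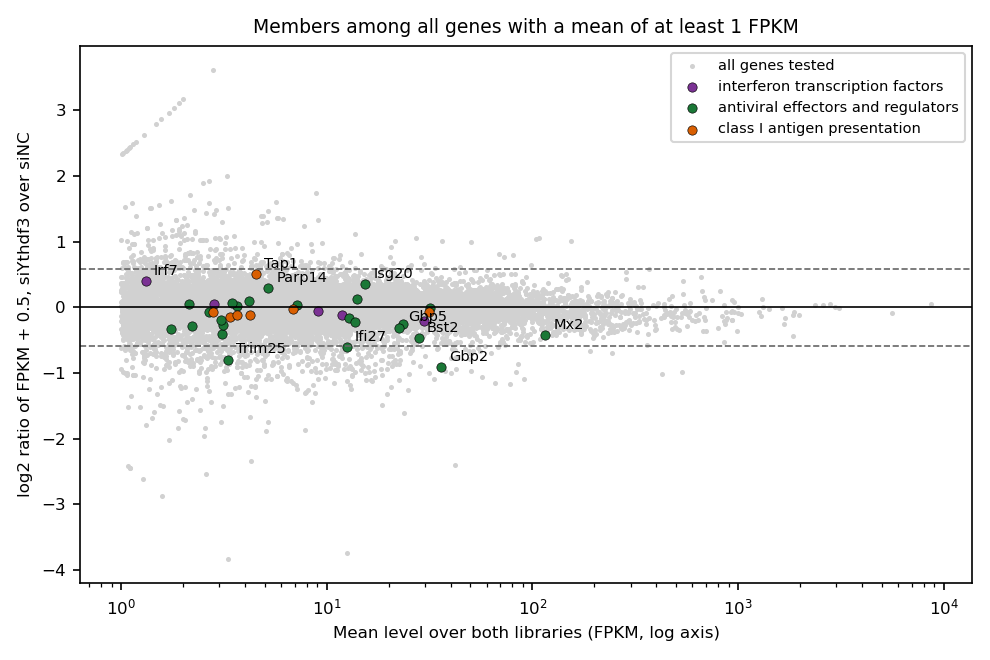
Log2 ratio of FPKM + 0.5 (siYthdf3 over siNC) against mean level (FPKM, log axis) for the 36 members that passed the filter, coloured by role, over all 13172 genes in grey, with dashed lines at 1.5-fold. Members lie inside the cloud of all genes, with Gbp2, Trim25 and Ifi27 below the lower line and none above the upper one.

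Interferon ligands were nearly silent. Ifnb1 had 1 read in each library, Ifne 1 read in siNC and 0 in siYthdf3, and Ifnk 0 and 2, with 3 of 9 ligand genes in the table. Most receptor and kinase genes were expressed and slightly higher in siYthdf3. Ifnar1 was at 24.8 FPKM in siYthdf3 against 22.0 FPKM, Ifngr1 at 11.8 against 9.98 FPKM and Jak1 at 31.8 against 27.3 FPKM, with ratios of 1.13, 1.18 and 1.17 and intervals above 1. Ifnar2, Ifngr2 and Tyk2 had log2 ratios of 0.05, 0.21 and 0.13. Of the 10 measured genes of this list, 0 were 1.5-fold apart, 9 were above 0 and the median was 0.17.

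Inhibitors of the pathway had a median of -0.08 over 8 measured genes, with 1 at least 1.5-fold lower. This was Ptpn6, or SHP-1, a phosphatase of blood cells, at 0.982 against 1.99 FPKM, or 0.494 times the siNC level (interval 0.373 to 0.651). Socs3 and Pias4 were at -0.30 and -0.29 and Pias1 at 0.22. Foxo3, through which YTHDF3 has been described to restrain interferon-stimulated genes in mouse cells, was at 6.92 FPKM in siYthdf3 against 7.09 in siNC, or 0.975 times the siNC level (interval 0.854 to 1.12). These are RNA levels. FOXO3 protein was not measured, so whether that route differed was not tested. Of 9 measured genes of nucleic acid sensing, 0 were 1.5-fold apart and the median was -0.01, with Cgas, the DNA sensor, at -0.32, Traf3 at -0.15, Dhx58 at 0.10 and Eif2ak2 at 0.09. Of 8 measured peptide loading genes outside the set, 0 were 1.5-fold apart, and their median was 0.03.

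Further interferon-stimulated genes had a median of -0.14 over 27 measured genes, beside -0.12 for the members. Of these, 1 was at least 1.5-fold lower, the surface protein gene Ly6e, at 2.44 FPKM in siYthdf3 against 4.03 FPKM in siNC, or 0.604 times the siNC level (interval 0.458 to 0.796). None was at least 1.5-fold higher on the scale of log2(FPKM + 0.5). Ddx60, a helicase that assists RNA sensing, was at 2.17 against 1.29 FPKM, or 1.69 times the siNC level (interval 1.36 to 2.11). This plain ratio is past 1.5-fold, and the log2(FPKM + 0.5) ratio of 0.58 is just short of it. Slfn2 was at -0.50 and Ube2l6, the enzyme that joins ISG15 to its targets, at -0.42. Class I heavy chain genes had a median of -0.20 over 7 measured genes, with 1 at least 1.5-fold higher, RT1-O1, at 3.89 against 1.88 FPKM. RT1-T24-4, RT1-S3 and RT1-N3 were at -0.37, -0.30 and -0.23. The intervals of RT1-T24-4 and RT1-S3 lie below 1 and that of RT1-N3 includes 1. Of the 7, 3 were above 0. Heavy chain genes are near-identical copies, so their split of reads is uncertain. The 11 genes of the class II list, which holds Ciita, Cd74 and Ctss beside RT1 genes, all stayed under 1 FPKM. They summed to 1.52 FPKM in siNC and 1.35 FPKM in siYthdf3, and RT1-Bb, RT1-DMb, RT1-DOa and RT1-DOb were at 0 in 1 library.

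**Figure D4:**
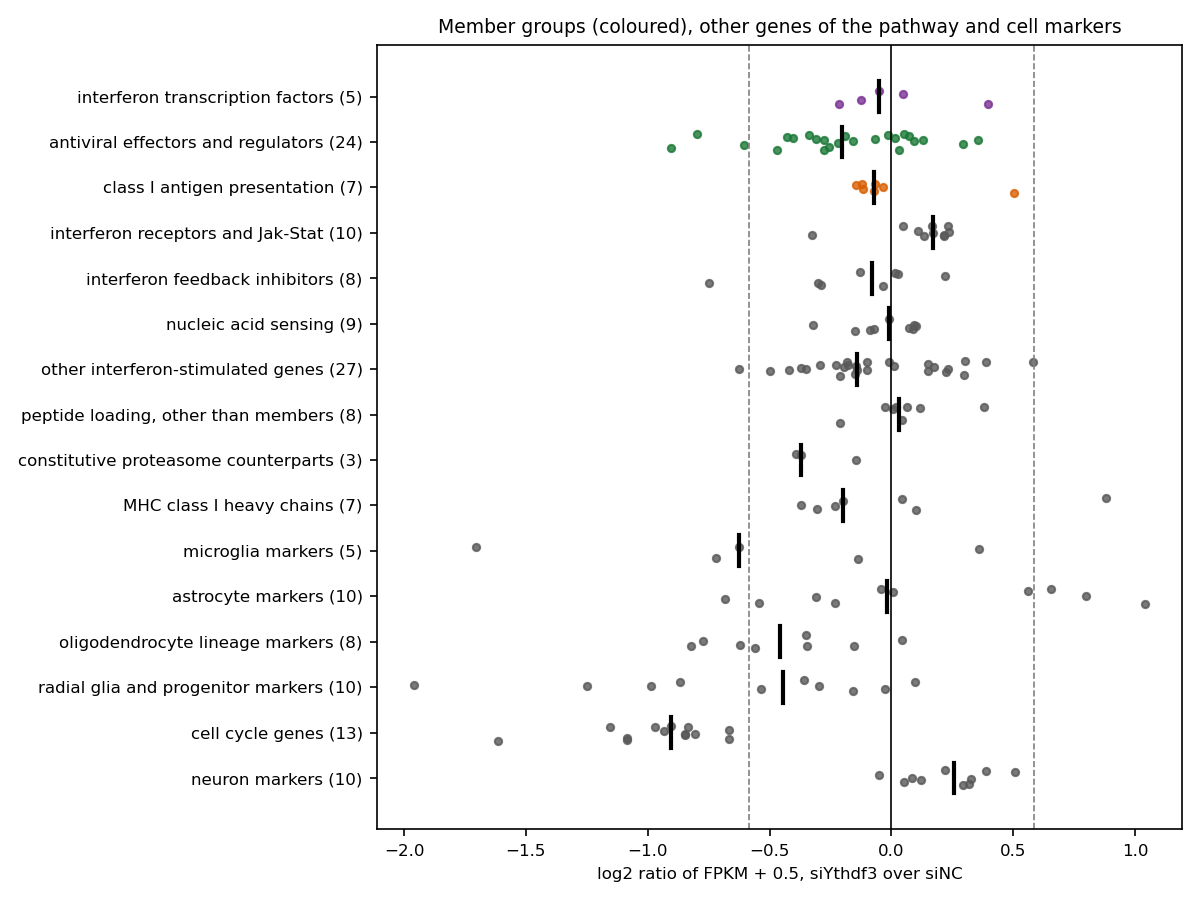
Log2 ratio of FPKM + 0.5 (siYthdf3 over siNC) for each measured gene of the member groups (coloured), of other pathway lists and of cell markers (grey), with the number of genes in brackets, black bars at the medians and dashed lines at 1.5-fold. The antiviral genes centre at -0.20, receptors and kinases at 0.17, and the widest shifts are those of cell cycle genes at -0.90 and microglia markers at -0.63.

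Most lists of cell markers had a larger median difference between the libraries than the members, whose median log2 ratio was -0.12. The astrocyte list, at -0.02, did not, and no endothelial marker passed the filter. Neuron markers, all 10 measured, had a summed level of 1060 FPKM in siNC and 1213 FPKM in siYthdf3, so the labelled cell type was present in both. Nefm, Map2, Syt1 and Nefl were at 0.51, 0.39, 0.32 and 0.32. Progenitor and glial markers were present too. Radial glia and progenitor markers summed to 2071 and 1395 FPKM, with 4 of 10 at least 1.5-fold lower, Eomes, Neurog2, Vim and Nes at -1.96, -1.25, -0.99 and -0.87. All 13 cell cycle genes were at least 1.5-fold lower, with 430 and 221 FPKM summed and Mcm3 lowest at -1.62. Of the oligodendrocyte markers, 3 of 8 measured were at least 1.5-fold lower, Olig2, Olig1 and Bcas1, and the 9 in the table summed to 76.2 and 62.3 FPKM. Mog alone was at 37.8 FPKM in siNC and 39.0 FPKM in siYthdf3, a log2 ratio of 0.04, and is named because of this level.

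Single markers of microglia and astrocytes also differed. Of 12 microglia markers, 10 were in the table and 5 were measured, with sums of 11.7 FPKM in siNC and 6.65 FPKM in siYthdf3. At least 1.5-fold lower were Tyrobp at -1.71 on 8 reads in siYthdf3 and 27 in siNC, Aif1 at -0.72 and Ptprc at -0.63, while P2ry12 was at 0.36. Cx3cr1, named for its few reads, had 0 reads in siYthdf3 and 2 in siNC. Astrocyte markers summed to 193 FPKM in siNC and 264 FPKM in siYthdf3, with Gfap, Slc1a2 and Slc4a4 at least 1.5-fold higher at 1.04, 0.80 and 0.66 and Gja1 lower at -0.68. Gfap alone was at 68.2 and 141 FPKM, and the other 9 summed to 124 FPKM in siNC and 123 FPKM in siYthdf3. The median log2 ratio of the list was -0.02 with 5 of 10 below 0, among them S100b at -0.54 and Sox9 at -0.31, both chosen after their values were seen. Endothelial markers, 7 in the table, all stayed under 1 FPKM, at 1.06 and 0.858 FPKM summed. Pericyte, fibroblast and meningeal markers summed to 136 and 161 FPKM, and Col3a1, Col1a2 and Pdgfrb were at least 1.5-fold lower. Myh11 went the other way, at 7.70 FPKM in siYthdf3 against 5.02 FPKM in siNC (ratio 1.53, interval 1.38 to 1.70). Its log2(FPKM + 0.5) ratio of 0.57 was just short of 1.5-fold. Acta2 alone was at 121 and 147 FPKM and is named because of this level, and the list without it summed to 15.2 FPKM in siNC and 14 FPKM in siYthdf3. The median log2 ratio of the list was -0.39, with 4 of 6 measured genes below 0. In bulk RNA, fewer cells of a type and less RNA per cell cannot be told apart, and the part of these marker differences in the members' values was not tested.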

How the data were processed

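Messenger RNA of 1 siNC and 1 siYthdf3 library of rat cortical neurons was compared. Per the labels' protocols, RNA extracted with TRIzol went into a digital mRNA kit that tags cDNA with identifiers of 12 random bases, and was sequenced as paired reads of 150 bases. Tools in the submitters' processing notes, listed there with no role, are StringTie 2.1.4, edgeR 3.40.2, featureCounts with Subread 1.5.1, STAR 2.7.6a and fastp 0.23.2. Unknown, since not given in the sources used here, remain genome build, annotation, strand use and collapse by identifier.

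FPKM values per gene were what the authors deposited, with gene lengths and coordinates, per the file headers. FPKM scale reads by gene length and library total. In each library 1 read is worth a fixed amount of FPKM times length, and 100% of values came out whole within 0.05 of a read. This gave the reads behind each value, 15392218 in siNC and 22586543 in siYthdf3. No count test was run, since 1 library a group leaves no spread to test against.

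The measure was the log2 of (siYthdf3 FPKM + 0.5) over (siNC FPKM + 0.5), so differences of low genes are understated. Of 21224 genes, the 13172 whose mean reached 1 FPKM entered, and a size rule of 1.5-fold was applied. For each gene, the share of its reads in siYthdf3 was given an exact 95% interval (Clopper-Pearson), turned into a ratio of FPKM. It covers counting error only, and copies of 1 molecule would make it too narrow. A value of 0 allows up to 3 reads.

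All 38 members and 17 further gene lists, with 188 of 220 genes in the table, were chosen with earlier results of these data known. The named genes are all members, the targeted gene and its paralogues, set receptor, kinase and proteasome genes, Foxo3, and from each list up to 4 measured genes with the largest differences plus any at least 1.5-fold apart. A gene of the receptor and kinase list is counted in it but not reported here by name. Genes under the filter are named for having few or no reads, and any other named gene is marked as chosen with its value known. Promoters came from RefSeq (GRCr8) and were matched by symbol. Alternatives were pseudocounts of 0.1 and 1 FPKM, a 2-fold rule, TPM, removal of a length trend, median centring, leaving out mitochondrial and top 20 genes before scaling, other filters and shorter lists. The lists without overlapping rows, Mx2 or Gbp2 were chosen after seeing the data. Software was Python 3.11.15 with matplotlib 3.10.9, statsmodels 0.14.6, scipy 1.17.1, pandas 2.3.3 and numpy 2.4.6.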

Additional observations from a re-analysis of the deposited data

How the results depend on the processing

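The members' median log2 ratio kept its sign under each alternative run, from -0.16 without the class I group to -0.07 with the length trend removed, against -0.12. The number of members at least 1.5-fold lower was 3, or 2 with a pseudocount of 1 FPKM, TPM, the length trend removed or without overlapping rows, where Ifi27 was lost, and 2 with a mean of at least 5 FPKM, where Trim25 was lost. Under a 2-fold rule it was 0. The number at least 1.5-fold higher was 0, and 1 (Tap1) after rescaling to TPM. Gbp2 ranged from -0.92 to -0.86, Trim25 from -0.90 to -0.70 and Ifi27 from -0.63 to -0.50. Of the single members, 3 changed sign under some alternative, Dtx3l, Isg15 and Tapbp, all close to 0. Leaving out members under 20 reads removed none. A looser ISRE core, AANNGAAA, stood in 78.8% of member windows and 26.4% of all windows. No replicate could be left out with 1 library a group. No paired analysis was possible because each group has 1 library without a replicate number. At the members' median of 472 reads over both libraries, small differences lie within counting error, and differences between cultures could not be measured.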

Other observations

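Some genes of the pathway lay under the filter of 1 FPKM and still differed in reads. They were chosen after their values were seen. Tlr3, the endosomal sensor of double-stranded RNA, had 8 reads in siNC and 58 in siYthdf3, or 0.112 and 0.551 FPKM, a ratio of 4.94 (interval 2.35 to 12.0). Sp100, a nuclear body protein, had 104 and 76 reads, or 0.999 and 0.497 FPKM, a ratio of 0.498 (interval 0.366 to 0.676). Epsti1 had 24 and 17 reads, a ratio of 0.483 (interval 0.243 to 0.937). Ciita, the transactivator of class II genes, had 1 and 11 reads, a ratio of 7.50 with an interval of 1.09 to 323. These few reads set no direction for the pathway.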
